A study of Rattus norvegicus with 16 samples.

Results

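The genes that code for the mitochondrial ribosome and for the import of proteins into mitochondria were followed in left ventricle of 2 rat strains breathing air or diesel exhaust (DE). Members were the probe sets whose only gene in the platform annotation was named Mrpl or Mrps with a number, Timm or Tomm, a rule on names that uses no measured value. This gave 109 probe sets for 94 genes, out of 12783 probe sets with 1 gene (10411 genes). The large-subunit family Mrpl had 55 probe sets for 45 genes and the small-subunit family Mrps 27 for 26 genes. The Timm family, named for the inner membrane translocases, had 16 for 14 genes. The Tomm family, named for the outer membrane translocase, had 11 for 9 genes. The rule took in every Timm name, Timmdc1 and the small TIM chaperones among them. A probe set that the annotation shares between Timm23 and related genes was not a member.

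Left ventricular RNA of male rats had been hybridized to the Affymetrix Rat 230A array, 1 rat to an array. The age of 12 to 14 weeks is that before the exposure. By the paper's methods the hearts were taken 1 day after its 4 weeks had ended. The 4 groups of 4 rats were rats of the Wistar Kyoto strain (WKY) and of the spontaneously hypertensive strain (SH), each either in air or in DE at 2.0 mg/m3, and they are named SH-air, SH-DE, WKY-air and WKY-DE by strain and chamber. Air and DE were both breathed in whole-body chambers, 6 hr a day on 5 days a week for 4 weeks as the labels give it. By the paper's methods each concentration had its own chamber, so an effect of DE and one of the chamber cannot be told apart. SH and WKY are separately inbred strains, so a difference between them covers everything in which their genomes and blood pressure differ, and the samples are whole tissue, in which fewer cells of a type and less RNA per cell cannot be told apart.

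A fold change below is a difference of group means on the scale log2(signal + 16.1), and SE is its standard error. A change is called significant when the limma p-value adjusted over all 15866 probe sets was under 0.05 and the unadjusted p was under 0.01. Markers of ventricular cardiomyocytes were bright on every array (11 of 12 on the list measured). Their summed signal was 342924 to 455242 in WKY-air, 320104 to 341159 in SH-air, 258607 to 372298 in WKY-DE and 257612 to 311696 in SH-DE, so the strains did not overlap in air and SH-air and SH-DE did not overlap, and 1 marker (Myh7) was significantly lower in SH-air than in WKY-air. Of 10 endothelial markers 8 were measured, with sums of 7698 to 9615 in WKY-air and 7300 to 7585 in SH-air and no marker significant. Markers of atrial cardiomyocytes were also measured (6 of 7), with a summed signal of 34065 to 97778 in WKY-air, 13279.6 to 24887 in SH-air, 13758 to 43566 in WKY-DE and 13744 to 35273 in SH-DE, and 4 of the 6 were significantly lower in SH-air than in WKY-air. Of 12 fibroblast markers, 8 were significantly lower in SH-air than in WKY-air and 1 was significantly lowered by DE in WKY rats. Their summed signals were 39527 to 46828 in WKY-air, 26152 to 29367 in SH-air, 30231 to 37284 in WKY-DE and 29990.1 to 33464 in SH-DE. Beside these marker counts, 1.82% of all probe sets with 1 gene were significantly lower in SH-air than in WKY-air. The share significantly lowered by DE in WKY rats was 0.563%. The part of these other cell types in the results that follow was not tested. The median signal of an array lay between 208.7 and 215.8 in WKY-DE and between 173 and 197 in the other groups, at the same trimmed mean in all 16. Whether a probe covers a base that differs between the strains was not examined, so a strain difference is one of signal.

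Mitochondria keep a small genome of their own and translate its few messages, all for subunits of the respiratory chain and ATP synthase, on a dedicated ribosome. Every protein of that ribosome is nuclear-encoded, made in the cytosol and carried in through the TOM complex of the outer membrane and the TIM complexes of the inner membrane, with small TIM chaperones in the space between. Heart muscle is among the tissues richest in mitochondria, and the nuclear factors NRF1, GABP and YY1 are known regulators of many genes for mitochondrial proteins.

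The promoters of members that differed significantly between groups are shown because such factors act there. The RefSeq promoter table (GRCr8 build) held a window for 78 of the 94 member genes, from 250 bases before the start site to 50 after it, and none for Mrps12. The motifs searched, on both strands, were GCGCATGC for NRF1, CCGGAAG for GABP and AAGATGGC for YY1. None of the 3 contains another, and the NRF1 letters can match both strands at overlapping places. They were chosen with results known. CCGGAAG was found in 26 of the 78 member promoters (33.3%), in 15.5% of the 8610 promoters of genes on the array and in 9.22% of all 27457. AAGATGGC was found in 16 (20.5%), against 5.13% and 3.44%, and GCGCATGC in 6 (7.69%), against 4.45% and 2.66%. Promoters of the respiratory chain list (71) held them in 28.2%, 22.5% and 9.86%, and those of the cytosolic ribosome (37) in 24.3%, 10.8% and 2.7%. A match is a run of letters and not a measured binding site. The 5 sequences below run 5′ to 3′ from 250 bases before the start site to 30 after it, or to the end of a match, with matches in capitals. They are Mrpl4 (chr8:27815521-27815800 on the plus strand), Mrpl27 (chr10:80092095-80092374 on the plus strand), Mrpl50 (chr5:68668054-68668337 on the minus strand), Mrps18a (chr9:22367351-22367630 on the minus strand) and Tomm40l (chr13:86174092-86174371 on the minus strand).
Mrpl4: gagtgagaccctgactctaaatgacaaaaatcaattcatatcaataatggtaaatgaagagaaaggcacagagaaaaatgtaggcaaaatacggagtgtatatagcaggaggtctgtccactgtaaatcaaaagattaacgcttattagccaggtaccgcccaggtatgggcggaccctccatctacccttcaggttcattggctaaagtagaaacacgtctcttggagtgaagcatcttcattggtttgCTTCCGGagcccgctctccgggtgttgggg
Mrpl27: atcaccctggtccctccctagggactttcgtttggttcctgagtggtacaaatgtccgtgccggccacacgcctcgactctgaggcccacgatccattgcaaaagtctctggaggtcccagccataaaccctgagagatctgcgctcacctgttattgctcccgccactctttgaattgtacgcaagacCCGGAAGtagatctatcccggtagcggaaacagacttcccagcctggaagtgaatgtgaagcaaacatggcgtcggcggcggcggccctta
Mrpl50: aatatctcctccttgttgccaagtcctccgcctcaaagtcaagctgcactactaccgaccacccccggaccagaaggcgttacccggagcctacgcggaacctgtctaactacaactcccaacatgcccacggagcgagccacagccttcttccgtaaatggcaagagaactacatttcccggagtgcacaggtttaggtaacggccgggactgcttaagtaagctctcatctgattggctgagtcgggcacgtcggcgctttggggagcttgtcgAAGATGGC
Mrps18a: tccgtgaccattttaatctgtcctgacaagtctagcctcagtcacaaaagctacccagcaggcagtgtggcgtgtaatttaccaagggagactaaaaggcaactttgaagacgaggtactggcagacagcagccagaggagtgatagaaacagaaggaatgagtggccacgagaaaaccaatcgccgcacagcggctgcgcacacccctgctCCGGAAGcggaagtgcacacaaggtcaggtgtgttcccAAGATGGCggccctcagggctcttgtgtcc
Tomm40l: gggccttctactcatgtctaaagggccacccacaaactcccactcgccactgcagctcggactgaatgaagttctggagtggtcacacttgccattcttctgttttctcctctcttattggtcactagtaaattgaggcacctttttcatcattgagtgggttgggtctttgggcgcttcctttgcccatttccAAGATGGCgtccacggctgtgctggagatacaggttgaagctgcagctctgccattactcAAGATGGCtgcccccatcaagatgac
The capitals mark the GABP letters in Mrpl27, the same letters read on the opposite strand at the start site of Mrpl4, and the YY1 letters in Mrpl50. Mrps18a held both the GABP and the YY1 letters, and Tomm40l held the YY1 letters at 2 places.

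The members were bright as a class. Their median signal over the 16 arrays was 1232, against 224 for all probe sets with 1 gene, 105 of 109 were among the brightest 60%, and 3 fell below the 25th percentile of all values (62.5). Mrpl17, a large-subunit protein, was the brightest (mean signal 7302), and among the other families the brightest were Timm8b, a small TIM chaperone (4965), Tomm20, a receptor for targeting signals (3723), and Mrps23, a small-subunit protein (2916). The dimmest probe set of each family was 1 of the 3 for Mrpl37 (48.3), 1 of the 2 for Mrps26 (16.7), and Timm44 (89.5), which tethers the import motor, and for Tomm it was 1 of the 2 for Tomm40l. These are levels of probe sets and do not rank the genes' messages. The median coefficient of variation of a member within a group was 12.8% in WKY-air, 9.69% in SH-air, 10.3% in WKY-DE and 10.8% in SH-DE. Over all probe sets it was 20.6%, 19.8%, 19.4% and 20.4%. As the members were brighter, this comparison is not matched for signal.

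The mean log2 level of the 109 probe sets was 10.19 ± 0.04 (SD, n = 4) in SH-DE, 10.14 ± 0.04 in SH-air, 10.03 ± 0.05 in WKY-air and 9.99 ± 0.02 in WKY-DE. It ran from 9.98 to 10.08 on the WKY-air arrays and from 9.97 to 10.01 on the WKY-DE arrays. It ran from 10.12 to 10.19 on the SH-air arrays and from 10.14 to 10.22 on the SH-DE arrays. All 8 SH arrays were therefore above all 8 WKY arrays, while air and DE overlapped within each strain. This order depends on the scale. Relative to each array's own median the level was 2.29 to 2.48 in WKY-air and 2.38 to 2.63 in SH-air. It was 2.13 to 2.20 in WKY-DE and 2.45 to 2.56 in SH-DE. On that scale the strains overlapped in air, and SH-DE remained above WKY-DE. WKY-DE then lay wholly below WKY-air, whereas SH-air and SH-DE overlapped. The array medians themselves were higher in WKY-DE, as given above.

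**Figure D1:**
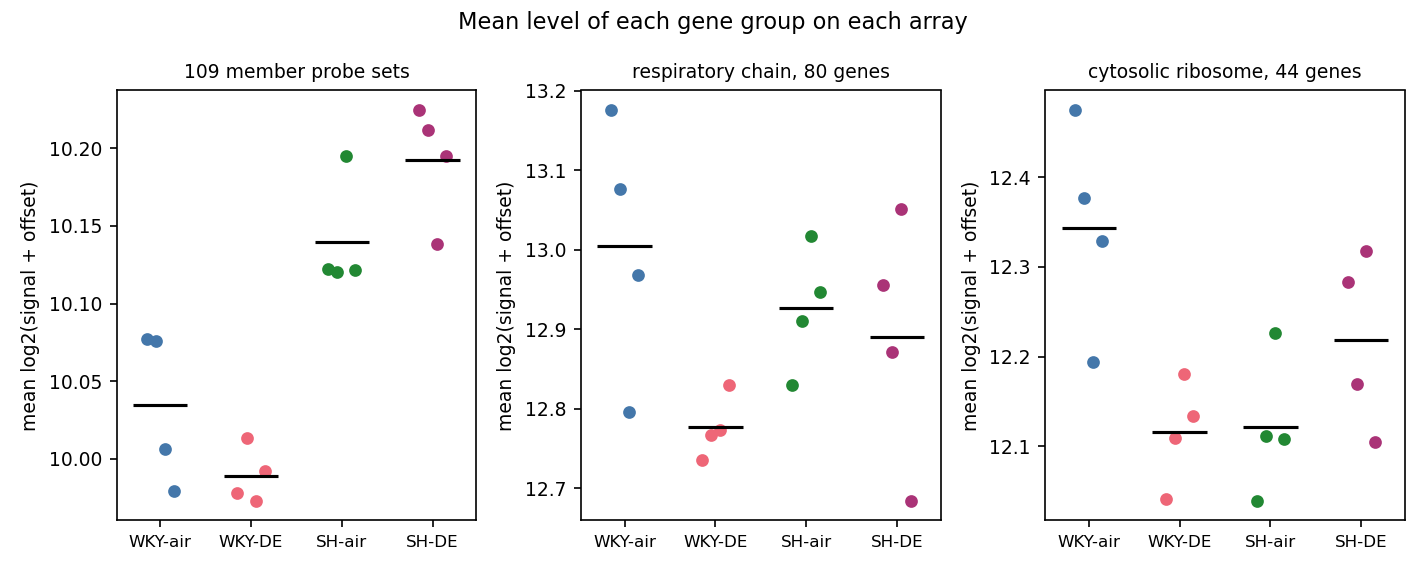
Mean log2(signal + 16.1) of the 109 member probe sets (left), 80 respiratory chain genes (middle) and 44 cytosolic ribosome genes (right) on each of the 16 arrays, with 1 point per rat and a line at the mean of the 4. The vertical axes differ and do not start at 0. For the members, the 8 SH points lie at 10.12 or above and the 8 WKY points at 10.08 or below, whereas the strains overlap in the other panels.

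In air, most members had slightly higher signals in SH than in WKY rats, and 3 probe sets passed the test. Mrpl50 and Tomm40l were higher in SH-air (2 of 109, 1.83%, against 1.31% of all probe sets with 1 gene) and Mrpl4 was lower (0.917%, against 1.82%). These shares are near the background or below it. Without SH-DE 3 the count was 5, and without any of the 4 SH-air arrays or WKY-air 1, 2 or 4 it was 1. SH-DE 3 is not in this comparison and enters only through the spread shared by all 16 arrays. Shares over all probe sets in these fits are not given, so the counts do not single out the members. The fold change was above 0 for 77 of the 109 (70.6%), with a median of 0.12, against 53.1% and 0.02 over all. At an unadjusted p under 0.05, 18 were higher (16.5%, background 9.14%) and 7 lower (6.42%, background 8.62%). The 4 SH-air values lay entirely above the 4 WKY-air values for 18 members (background 5.86%) and entirely below for 3 (background 5.85%). The median was 0.14 for Mrpl, 0.09 for Mrps, 0.15 for Timm and 0.04 for Tomm.

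Mrpl4, a large-subunit protein that in ribosomes lines the peptide exit tunnel (GRCr8 chr8:27815771-27821786), had signals of 3559.9, 3307, 3446 and 2923 in WKY-air and 1574, 1805, 2138 and 2254 in SH-air. In DE they were 2887, 2808, 2384 and 3046 in WKY rats and 2255, 1749, 2355 and 2087 in SH rats. Every SH rat was below every WKY rat. The strain difference in air was −0.77 (SE 0.14, limma adjusted p = 0.00946), and under DE it was −0.40 with limma adjusted p = 0.233. The call in air held without any 1 of the 16 arrays (adjusted p 0.00892 to 0.0315) and was lost when the WKY-air and SH-air arrays were fitted alone (adjusted p = 0.0581).

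Tomm40l, a paralog of the TOM channel protein Tomm40 (GRCr8 chr13:86169160-86174121), was dimmer. It measured 70.5, 91.1, 60.6 and 76.9 in WKY-air, 158, 188, 223 and 245 in SH-air, 105, 57.2, 99.9 and 28.9 in WKY-DE and 241, 240.3, 91.9 and 192 in SH-DE. The air groups did not overlap, and under DE the SH-DE rat at 91.9 lay within the WKY-DE range. The strain difference was 1.27 in air (SE 0.31, limma adjusted p = 0.0423) and 1.25 under DE (limma adjusted p = 0.0879). Leaving out SH-DE 3, the rat at 91.9, made the second 1.54 with adjusted p = 0.0157, whereas the call in air was lost when any of 10 arrays was left out (all 4 WKY-air, all 4 SH-air, WKY-DE 2 and SH-DE 4, adjusted p up to 0.112). The other Tomm40l probe set had signals between 1.74 and 47.9 on all arrays and a strain difference in air of −0.04 (limma adjusted p = 0.978), so the difference rests on 1 probe set.

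Mrpl50, a large-subunit protein without a bacterial counterpart (GRCr8 chr5:68662933-68668087), measured 787, 790.1, 952 and 731 in WKY-air and 1099.9, 1296, 1169.5 and 1432 in SH-air. The WKY-DE values, 1093, 1186, 984 and 925, overlapped both air groups, and those of SH-DE were 1402, 1507, 1008 and 1520.0. Both Mrpl50 probe sets had all 4 SH-air rats above all 4 WKY-air rats. The fold change was 0.61 (SE 0.15, limma adjusted p = 0.0392) for the first and 0.46 (SE 0.14, limma adjusted p = 0.101) for the second. The call was lost without any of 9 arrays (the 4 of SH-air, WKY-air 1, 2 and 4, WKY-DE 1 and SH-DE 1, adjusted p up to 0.116).

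Members next in order of p did not pass. Mrps33, a small mitochondria-specific subunit protein, was 1439 ± 55.1 in SH-air against 1016 ± 130.1 in WKY-air (0.50, limma adjusted p = 0.058). It passed without SH-DE 3 (adjusted p = 0.0197). Tomm5, a small TOM subunit, was 2279 ± 279 and 1638 ± 222 (0.47, limma adjusted p = 0.0901). Timm10, a small TIM chaperone, went the other way, at 3952 ± 243 in SH-air against 5024 ± 698 in WKY-air (−0.34, limma adjusted p = 0.131).

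**Figure D2:**
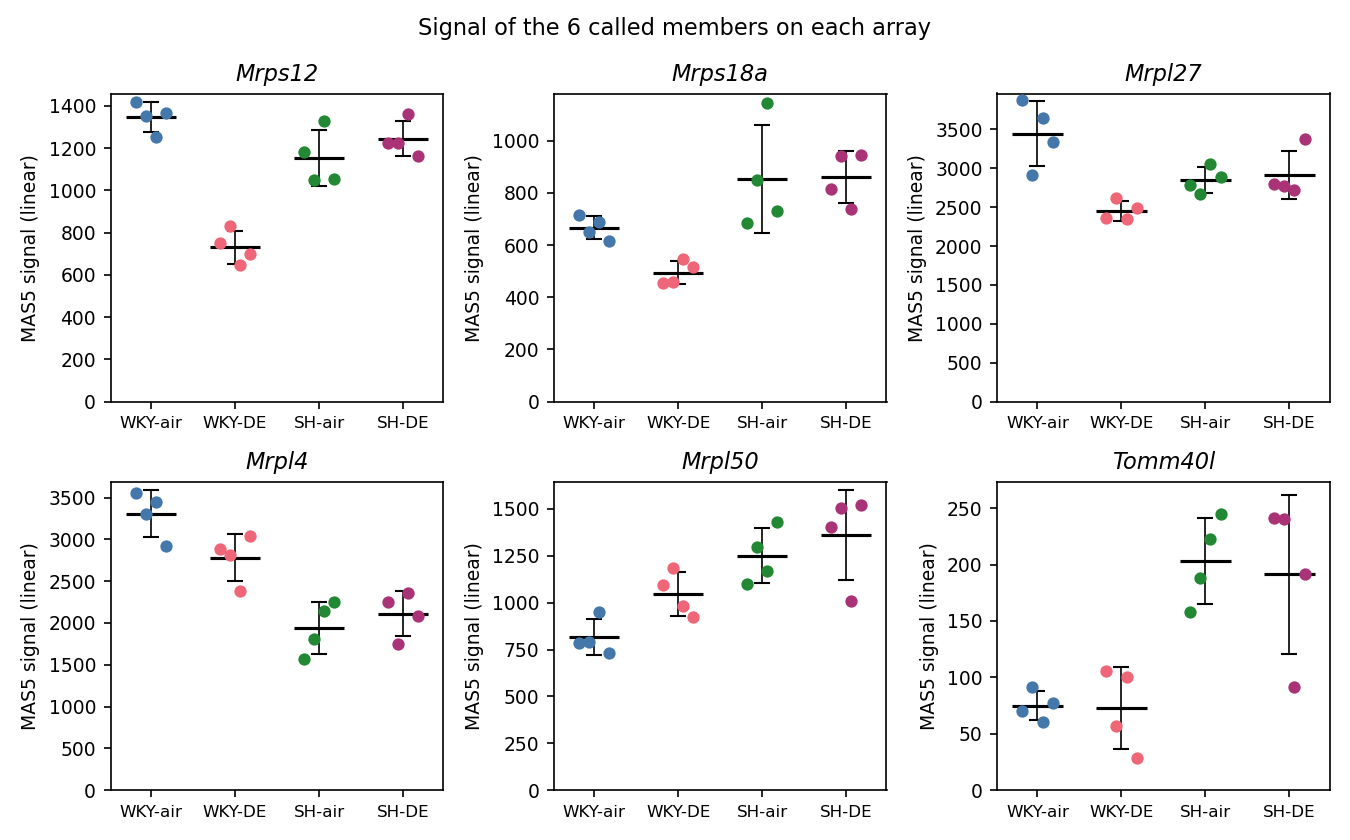
Deposited signal on each array (linear axis from 0) of the 6 member probe sets with a significant difference in at least 1 comparison, with 1 point per rat, 4 rats per group, and the mean ± SD. The 4 WKY-DE rats of Mrps12 lie between 648 and 831, below the 12 others at 1052 or above, and the 8 SH rats of Mrpl4 lie below the 8 WKY rats.

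Under DE the tilt towards SH held for more members by sign than in air. The counts without overlap and with SH higher were close, at 18 in air and 19 under DE. The fold change of SH-DE against WKY-DE was above 0 for 95 of 109 members (87.2%), with a median of 0.17, whereas over all probe sets 39.0% were above 0 with a median of −0.08. Mrps12 and Mrps18a passed the test, both higher in SH-DE (1.83%, background 0.422%), and no member was significantly lower (background 0.282%). Without SH-DE 3, 5 were higher (Mrpl44, Mrps12, Mrps18a, Mrps33 and Tomm40l), and without any of SH-DE 2 or 4 or WKY-DE 1, 2 or 4 only 1 was. Here too the shares over all probe sets without 1 array are not given, so the counts do not single out the members. At an unadjusted p under 0.05, 33 members were higher (30.3%, background 4.73%) and 4 lower (3.67%, background 8.53%). The summed signal of macrophage markers (7 of 9 measured, none significant) was also higher without overlap, at 4604 to 5718 in SH-DE and 3568 to 4587 in WKY-DE, with 4841 to 5427 in WKY-air and 3899 to 4968 in SH-air, and its part in this tilt was not tested. The groups did not overlap, with SH-DE higher, for 19 members (background 3.3%) and with SH-DE lower for 3 (background 5.51%), which were Mrpl4, Mrps9 and Timm22. All families had positive medians, of 0.17 for Mrpl, 0.22 for Mrps, 0.16 for Timm and 0.16 for Tomm. After quantile normalization, which removed the higher array medians of WKY-DE, the member median was 0.16 and that of all probe sets −0.00. Among the 8097 probe sets left without the dimmest 40%, the median was −0.05.

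Mrps12 (GRCr8 chr1:93153424-93156422), a small-subunit protein at the site where codons are read, had the clearest difference of all members. Its signals were 750.3, 831, 648 and 699 in WKY-DE and 1224, 1227, 1361 and 1164 in SH-DE. In air they were 1420.4, 1351, 1251 and 1366 in WKY and 1184, 1052, 1329.9 and 1052 in SH rats. WKY-DE stood below each other group without overlap, and the other 3 groups overlapped one another. The difference of SH-DE from WKY-DE was 0.76 (SE 0.11, limma adjusted p = 0.00421), and in air it was −0.23 (limma adjusted p = 0.324). The call under DE held without any 1 array (adjusted p 0.00411 to 0.0176) and was lost with the WKY-DE and SH-DE arrays fitted alone (adjusted p = 0.0682).

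Mrps18a (GRCr8 chr9:22350887-22367380), named for the small subunit but found in the large subunit in ribosome structures, measured 456, 458, 546 and 516 in WKY-DE and 817, 942, 739.5 and 945 in SH-DE. It measured 716, 650.3, 688 and 614 in WKY-air and 686, 849, 1146 and 732 in SH-air. WKY-DE was again the lowest group and overlapped none of the others. The difference under DE was 0.78 (SE 0.15, limma adjusted p = 0.0238), lost without any of SH-DE 1, 2 or 4 or WKY-DE 1, 2 or 4 (adjusted p up to 0.0966). In air it was 0.32 (limma adjusted p = 0.285).

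Mrpl43 and Mrps22, both without a bacterial counterpart, came next. Mrpl43 was 1945 ± 36.9 in SH-DE and 1447 ± 206 in WKY-DE (0.43, limma adjusted p = 0.0841). Mrps22 was 958 ± 203 and 627 ± 35.2 (0.58, limma adjusted p = 0.0874), and passed without SH-DE 1 (0.71, adjusted p = 0.0284). Timm8b, the brightest of the Timm family, was 5597 ± 440.2 and 4157 ± 71.8 (0.42, limma adjusted p = 0.121).

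The strain comparisons in air and under DE share no arrays, so they can be set beside each other. Of the 109 members, 75 were higher in SH in both (68.8%, against 22.9% of all probe sets), 12 were lower in both (30.7% of all probe sets were) and 22 had opposite signs. Across members, which are not independent replicates, the fold changes of the 2 comparisons had r = 0.53 (rho = 0.38, n = 109), against r = 0.16 over all 12783 and r = 0.30 without the dimmest 40%. The members share arrays, RNA and scaling. Within families r was 0.40 for Mrpl, 0.42 for Mrps, 0.67 for Timm and 0.77 for Tomm, the last with rho = 0.22 over 11 probe sets that include the first Tomm40l probe set.

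Members whose SH and WKY rats did not overlap in either condition numbered 6 with SH higher (5.50%, against 0.814% of all) and 2 with SH lower (1.83%, against 0.845%). Mrpl15, a core large-subunit protein, ran from 3315 to 3589 in WKY-air and from 3710.1 to 4365 in SH-air, and from 3168 to 3445 in WKY-DE and 3946 to 4526 in SH-DE. Mrpl37, also of the large subunit, ran by 1 of its 3 probe sets from 2352 to 2741 and from 2981 to 3145 in air, and from 2196 to 2408 and from 2581 to 3135 under DE. Mrpl49 ran by 1 of its 2 probe sets from 823 to 1035 and from 1088 to 1199 in air, and from 969.7 to 1058 and from 1188 to 1493 under DE. The gaps between strains were small in each. Mrps30, another protein named for the small subunit and located in the large, ran from 1051 to 1527 and from 1528 to 1806 in air, and from 1089.8 to 1531 and from 1603 to 1933 under DE. Mrpl43 and Mrps33 were the others. Timm22, the channel of the carrier translocase, was lower in SH by 1 of its 2 probe sets, at 312 to 334 against 209 to 303 in air and 321 to 357 against 180.1 to 289 under DE. Its other probe set overlapped in both conditions. Of the 8 members, only Mrpl4 passed the test in either strain comparison.

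**Figure D3:**
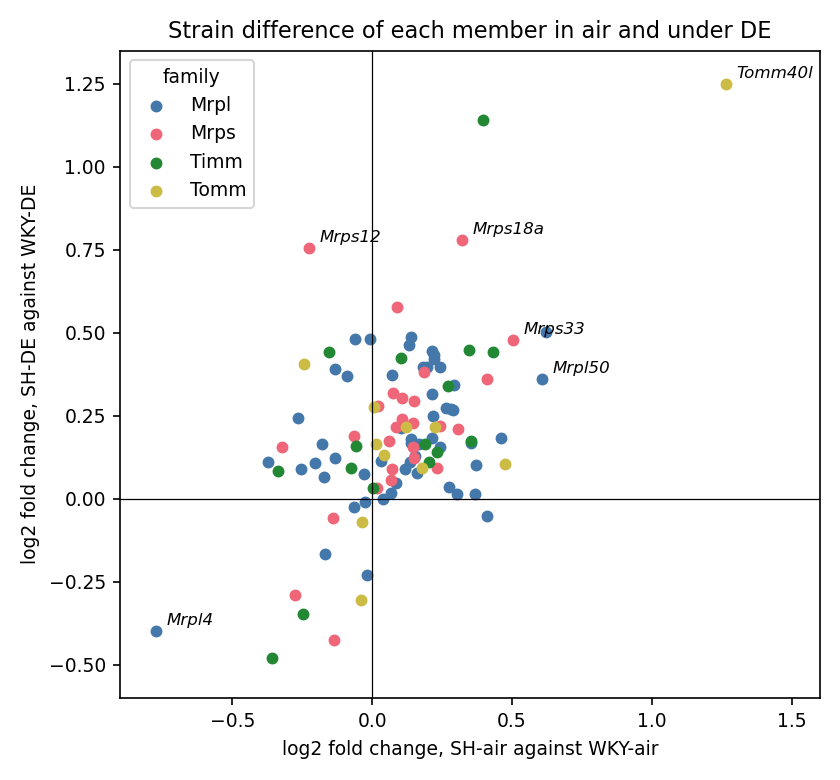
Log2 fold change of each of the 109 member probe sets in SH-air against WKY-air (horizontal) and SH-DE against WKY-DE (vertical), colored by family. The upper right quadrant holds 75 of the 109, and Mrps12 stands in the upper left with −0.23 in air and 0.76 under DE.

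DE in WKY rats lowered 2 members and raised none by the test. Mrps12 and Mrpl27 were down-regulated (1.83%, background 0.563%), and no member passed upward (background 1.31%). Mrps12 alone passed without any of 13 of the 16 arrays, the exceptions being WKY-air 2 and 3 and SH-DE 4. Shares over all probe sets in those fits are not given. The fold change was above 0 for 49 of 109 (45.0%), with a median of −0.03, against 60.6% and 0.08 over all probe sets. This gap depends on the scaling. After quantile normalization the member median was −0.01 with 45.0% above 0, against −0.00 and 49.9% over all probe sets. At an unadjusted p under 0.05, 4 members were higher (3.67%, background 13.6%) and 9 lower (8.26%, background 6.81%). WKY-DE lay wholly above WKY-air for 2 members (Mrps14 and 1 of the 2 probe sets of Mrpl52, at 0.36, the other being at −0.22, background 8.14%) and wholly below for 6 (background 4.58%), which were Mrps12, Mrps18a, Mrps22, Mrpl27, Timm10 and Timm8b. The median was −0.05 for Mrpl, −0.03 for Mrps, and 0.06 for Timm and for Tomm. These comparisons use the WKY-air and WKY-DE arrays of the strain comparisons above, so the same rats enter both.

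Mrps12 fell by 0.87 on the log2 scale (SE 0.11, limma adjusted p = 0.00873), from 1347 ± 70.6 to 732 ± 78.1, and the highest WKY-DE rat at 831 was below the lowest WKY-air rat at 1251. This call was kept under all 26 alternative settings (adjusted p 0.00136 to 0.0469), among them the loss of any 1 array. Mrpl27 (GRCr8 chr10:80092327-80098105), a large-subunit protein near the site of peptide bond formation, measured 3884, 2911, 3643 and 3339.6 in WKY-air and 2366, 2614, 2343 and 2488 in WKY-DE. The groups did not overlap. It fell by 0.48 (SE 0.11, limma adjusted p = 0.0481), and the call was lost without any of 14 arrays, the exceptions being WKY-air 2 and SH-DE 4 (adjusted p up to 0.106). In SH rats it was 2851 ± 164 in air and 2916 ± 311 under DE.

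The following did not pass in WKY rats. Mrpl23 was 1661 ± 326 in WKY-air and 1229.6 ± 67.9 in WKY-DE (−0.41, limma adjusted p = 0.134), and passed without WKY-air 3 (adjusted p = 0.043). Mrps18a was 667 ± 44.3 and 494 ± 44.6 (−0.42, limma adjusted p = 0.137). Mrpl14 was 489 ± 84.5 and 329 ± 42.2 (−0.54, limma adjusted p = 0.144). Among the import genes, Timm17b, a subunit of the presequence translocase, was 269.8 ± 58.2 and 176 ± 43.6 (−0.58, limma adjusted p = 0.148), and Tomm7, a small TOM subunit, was 2033 ± 430.2 and 1423 ± 241 (−0.50, limma adjusted p = 0.299).

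In SH rats no member was significantly changed by DE, and neither was any of the 12783 probe sets with 1 gene (background 0% in both directions). The fold change was above 0 for 74 of 109 (67.9%), with a median of 0.06, against 49.8% and −0.00 over all. At an unadjusted p under 0.05, limma gave 3 members higher (2.75%, background 3.24%) and 0 lower (background 2.99%). The groups did not overlap for 3, all with SH-DE higher (background 2.11%), and for 0 with SH-DE lower (background 2.06%). Timm10b, a TIM chaperone of the carrier translocase, measured 268, 238, 286 and 273 in SH-air and 334, 357, 343 and 353 in SH-DE (0.37, limma adjusted p = 0.743). The other 2 without overlap were Mrpl43 and Timm21. Of the remaining members of lowest p, Mrps5 had a fold change of 0.33 (limma adjusted p = 0.777), Mrpl57 of 0.29 (0.799), Mrpl3 of −0.25 (0.824) and 1 probe set of Mrpl51 of 0.21 (0.842).

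**Figure D4:**
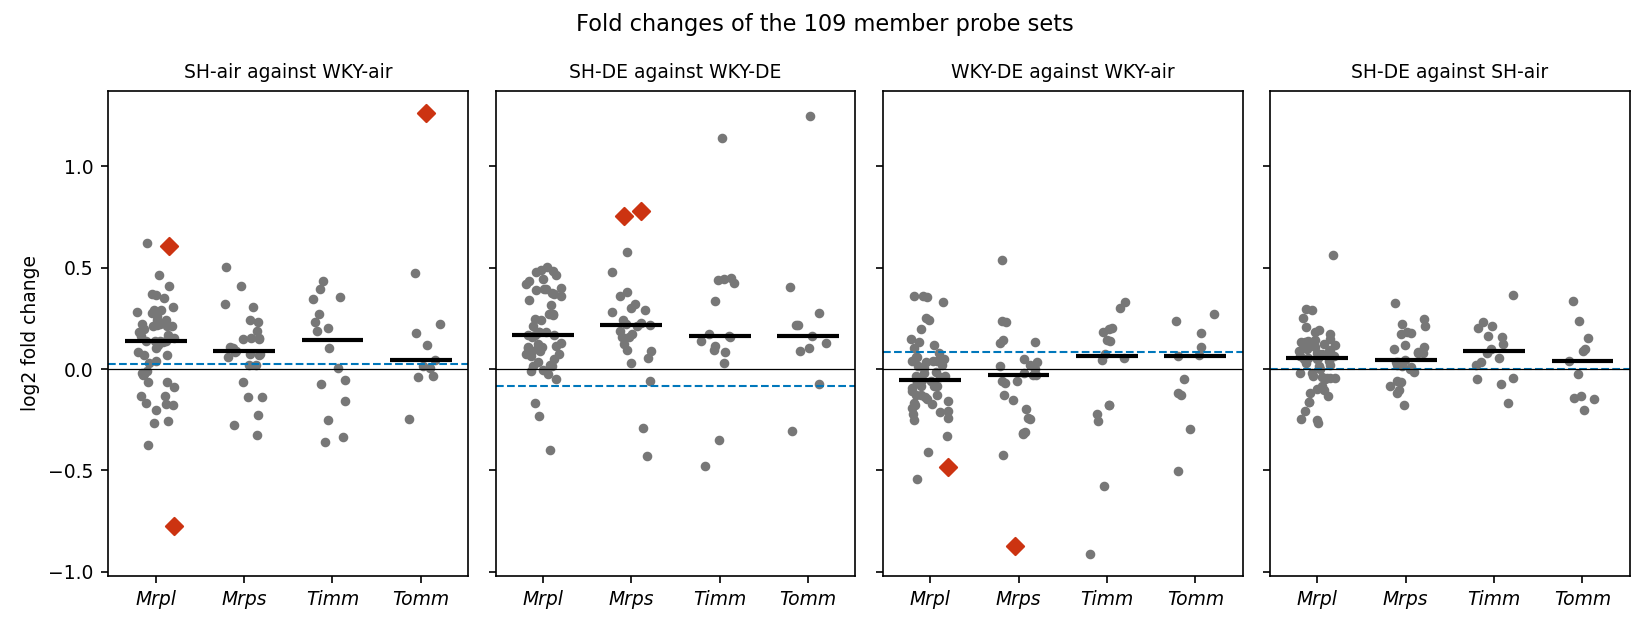
Log2 fold changes of the 109 member probe sets by family in 4 comparisons, with 1 point per probe set, a bar at the family median, red diamonds for significant members and a dashed line at the median of all 12783 probe sets with 1 gene. The family medians lie at 0.16 to 0.22 in SH-DE against WKY-DE, where the dashed line is at −0.08.

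The interaction asks whether the response to DE differed between strains, and no member passed (background 0.00782% higher, 0% lower). At an unadjusted p under 0.05, limma gave 8 members higher (7.34%, background 4.54%) and 0 lower (background 7.96%), where higher means a more positive response in SH rats. They were Mrps12, Mrpl27, Timm10, Mrps5, Mrpl23, Mrps22, Mrpl33 and Mrps18a. Mrps12 had the lowest p, with a difference of 0.98 (SE 0.16, limma adjusted p = 0.077). It passed without SH-air 3 (adjusted p = 0.0411) and under 5 other alternative settings. For Mrpl27 the difference was 0.51 (limma adjusted p = 0.252), for Timm10 0.42 (0.313), for Mrps5 0.48 (0.332) and for Mrpl23 0.48 (0.355). The median over members was 0.04, with 60.6% above 0, against −0.08 and 41.2% over all probe sets. After quantile normalization it was 0.05 with 60.6% above 0, against −0.00 and 49.7% over all probe sets.

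Of the DE comparisons in the 2 strains, which share no arrays, 37 members were higher with DE in both, 23 lower in both and 49 of opposite sign (r = 0.21, n = 109, a description across members). These are 33.9% and 21.1% of the members for the shared directions, near the 31.4% and 21.0% of all probe sets (r = 0.02).

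Genes that work beside the members were taken from lists, with the brightest probe set of each gene. Of 12 mitochondrial translation factors and aminoacyl-tRNA synthetases none passed in any comparison, and their medians were 0.07 for the strains in air, 0.14 under DE and −0.05 for DE in WKY rats. Tufm, the mitochondrial elongation factor that delivers tRNA, was 5287 ± 399.8 in SH-air against 4741 ± 872 in WKY-air (0.17, limma adjusted p = 0.563). Of 21 genes of ribosome assembly and other ribosome subunits, 1 was higher in SH-air, 1 higher in SH-DE than in WKY-DE and 1 raised by DE in WKY rats. Each is 4.76% of the list, against 1.31%, 0.422% and 1.31% of all probe sets with 1 gene. Nsun4, a methyltransferase needed for joining the ribosomal subunits, was 336 ± 51.7 in WKY-air, 504 ± 36.6 in SH-air, 511 ± 32.0 in WKY-DE and 466 ± 60.6 in SH-DE (strain in air 0.57, limma adjusted p = 0.0259, DE in WKY 0.59, limma adjusted p = 0.0363). Both calls use the WKY-air rats, and each was lost without WKY-air 1, 2 or 4, the first also without SH-air 2 or 4 (adjusted p up to 0.0787) and the second without any WKY-DE array (adjusted p up to 0.0842). Dap3, a small-subunit protein named outside the Mrps series, was 719 ± 56.4 in SH-DE and 505 ± 23.8 in WKY-DE (0.49, limma adjusted p = 0.0484), and this call was lost without any 1 of the 16 arrays (adjusted p 0.0519 to 0.126).

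Of 28 other genes of import, processing and folding, 1 was higher and 1 lower in SH-air than in WKY-air and none passed elsewhere. Each is 3.57% of the list, against 1.31% and 1.82% of all probe sets with 1 gene. Dnaja3, a co-chaperone of mitochondrial Hsp70, was 587 ± 91.1 in SH-air against 984 ± 66.3 in WKY-air (−0.74, limma adjusted p = 0.00956). This call held without any 1 array (adjusted p 0.00505 to 0.0328) and was lost with the WKY-air and SH-air arrays fitted alone (adjusted p = 0.0518). Dnajc15, a co-chaperone linked to the import motor, was 4200 ± 84.1 and 3076 ± 319 (0.45, limma adjusted p = 0.0312), lost without any SH-air array or WKY-air 1, 3 or 4 (adjusted p up to 0.0924). Of 15 genes of mitochondrial genome maintenance and transcription, Endog, a mitochondrial nuclease, was lower in SH in both conditions (under DE −2.12, limma adjusted p = 0.00837). It is 6.67% of the list, against 1.82% of all probe sets with 1 gene in air and 0.282% under DE. The call under DE was lost with the WKY-DE and SH-DE arrays fitted alone (limma adjusted p = 0.101). Esrra, a nuclear receptor that regulates mitochondrial genes, was 686 ± 92.8 in SH-DE and 471 ± 51.4 in WKY-DE (0.52, limma adjusted p = 0.144).

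The cytosolic ribosome and the respiratory chain had lower median fold changes than the members in SH-air against WKY-air and in WKY-DE against WKY-air, and higher ones in the interaction, which also uses the WKY-air rats. In SH-air against WKY-air their medians were −0.23 over 44 cytosolic ribosome genes and −0.09 over 80 respiratory chain genes, against 0.12 over members. In WKY-DE against WKY-air they were −0.27 and −0.25, against −0.03 over members. With DE in both strains, the medians of SH-DE against WKY-DE were 0.11 and 0.10, against 0.17. In the interaction they were 0.35 and 0.19, against 0.04. There 21 of the 44 cytosolic ribosome genes (47.7%, background 4.54%) were higher at an unadjusted p under 0.05, with none significant by the adjusted limma test. In the cytosolic ribosome 3 genes were significantly lower in SH-air (6.82%, against 1.82% of all probe sets with 1 gene). In that list 4 were lowered by DE in WKY rats (9.09%, background 0.563%). Higher in SH-DE than in WKY-DE was 1 (2.27%, background 0.422%). In the respiratory chain 1 was higher and 1 lower in SH-air, and 1 was lowered by DE in WKY rats. Each is 1.25% of the list, against 1.31%, 1.82% and 0.563% of all probe sets with 1 gene. These are descriptions of lists on the same arrays, and the difference between lists was not tested.

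Several probe sets of 1 gene did not always move together. Of the 12 member genes with more than 1 probe set, the fold changes of all probe sets had the same sign for 7 in the strain comparison in air, 6 in that under DE, 4 for DE in WKY rats and 5 for DE in SH rats. Mrpl51, with 4 probe sets, ranged from −0.20 to 0.41 for the strains in air, and Mrpl37, with 3, from −0.09 to 0.35. The members called significant other than Mrpl50 and Tomm40l had 1 probe set each.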

How the data were processed

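Each of the 16 samples was left ventricular RNA of 1 rat on 1 Affymetrix Rat 230A array. The deposited values are probe set intensity signals on a linear scale, which the authors computed with MAS5 (named in the submitters' processing notes), with a trimmed mean near 500.2 on every array after leaving out 2% at each end. The authors' own group tests used another normalization of the scanner files, and those values were not used here. The labels give 6 hr of exposure a day and the paper's methods 4 hr. Replicates were described as biological, and p-values measure the spread between these rats.

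Of 15923 probe sets, 57 controls were left out and 15866 tested. The platform annotation named 1 gene for 12783, several for 312 and none for 2771, and all 109 members matched RefSeq. Values were taken as log2(signal + 16.1), the 10th percentile of all values being the offset (at most 12.5% of an array lay below it). A model of 4 group means was fitted with limma 3.58.1 in R 4.3.3 (12 residual and 2.68 prior degrees of freedom, median SE of a fold change 0.21), with Benjamini-Hochberg adjustment over all probe sets, and 5 contrasts were drawn. The number of arrays limits the precision. The script was tested on simulated data. Members, lists and motifs were chosen with earlier results of these data known. Named with values were the significant members, the 5 of lowest p in each comparison, each family's lowest p for strain in air and for DE in WKY rats, and each family's brightest and dimmest. From the other lists, up to 4 genes of lowest p could be named. Members without overlap between strains in both conditions were added after their values were seen. The alternatives were other offsets (1 or the 25th percentile), quantile normalization, the dimmest 40% left out, robust moderation along an intensity trend, weights for arrays, the compared groups alone, a replicate block, 1 probe set per gene, an adjusted p limit of 0.01, and the loss of each array.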

Additional observations from a re-analysis of the deposited data

Results flagged for a closer look

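In 100 groups of 4 rats, from 20 member probe sets and the mean levels of the members and families, 7 had 1 rat far from the other 3, meaning that its gap to the nearest divided by the range of the group was above Dixon's critical value. Chance gives about 1 in 20 groups. In SH-DE, Mrps33 was 1092 in rat 3 against 1538 to 1633 in the others (ratio 0.851), Mrpl27 was 3380.1 in rat 4 against 2719.9 to 2795 (0.875), and Tomm5 was 2507 in rat 1 against 1908 to 1982 (0.860). In SH-air, Tomm5 was 1865 in rat 1 against 2366 to 2462 (0.858) and Mrps22 was 954 in rat 3 against 789 to 803 (0.912). Within SH-air, the mean log2 level of all members was 10.19 in rat 3 against 10.12 in each of the other 3 (0.974), and that of the Tomm family was 9.71 in rat 1 against 9.95 to 9.96 (0.948). The cause was not tested.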

How the results depend on the processing

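Of 907 recomputed values for the 35 named results, 0 changed direction, 777 stayed on the same side of the threshold, 106 lost it and 24 passed it. The median fold changes of the members kept their sign under all alternatives and moved by more than the spread between rats in 1 case only, the interaction without SH-DE 3 (0.087 against 0.043). For SH-air against WKY-air the count of significant members was 3, with 1 at an adjusted p limit of 0.01, 1 with the compared groups alone, 6 without the dimmest 40% and 6 with an intensity trend. For SH-DE against WKY-DE it was 2, with 1 at the limit of 0.01, 0 with the compared groups alone, and 7 without the dimmest 40%, with an intensity trend and with array weights. For DE in WKY rats it was 2, with 1 at the limit of 0.01, with an offset of 1, after quantile normalization and with the compared groups alone. For DE in SH rats it was 0 throughout. The calls over all probe sets with 1 gene moved too. For the strains in air they were 168 higher and 233 lower, 53 and 82 with the compared groups alone, 278 and 352 of 8097 without the dimmest 40%, and 269 and 351 with the trend. For the strains under DE they were 54 and 36, then 16 and 3, 108 and 101, and 115 and 79, with 105 and 119 under array weights. For DE in WKY rats they were 167 and 72, with 18 and 11 for the compared groups alone, 120 and 56 with an offset of 1, and 36 and 43 after quantile normalization. For the interaction it was 0, with 1 (Mrps12) at an offset of the 25th percentile, after quantile normalization, without the dimmest 40%, with an intensity trend and with 1 probe set per gene. Over all probe sets with 1 gene the interaction had 1 call, higher. In those 5 settings it had 4, 6, 2 of 8097, 2, and 5 of 10411, all higher. Without 1 array the counts of members were 1 to 5, 1 to 5, 1 to 2, 0 and 0 to 1, and their medians were 0.10 to 0.14, 0.17 to 0.20, −0.064 to −0.019, 0.040 to 0.073 and 0.034 to 0.087. The highest counts in the strain comparisons came without SH-DE 3. Calls over all probe sets without 1 array are not given, so these counts do not show a change particular to the members.

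The labels number the replicates and do not say whether rats of the same number are paired. The deviations of same-numbered rats correlated between −0.096 and 0.053 over all probe sets. With the replicate block the counts were 1 (Mrpl4), 1 (Mrps12), 1 (Mrps12), 0 and 0, and over all probe sets with 1 gene 93 higher and 149 lower, 32 and 14, 60 and 28, 1 and 0, and 0 and 0.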
